A study of Mus musculus with 12 samples.

Results

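The neuronal differentiation genes described here are 39 mouse genes used widely as signs that a neural progenitor is becoming a neuron, and they were picked by name from the table of RNA levels. Of the 39 symbols, 38 were found among the 21253 genes of the table. Tubb3, a neuronal beta-tubulin, was not analysed here. The 38 genes comprise 11 transcription factors, 4 RNA-binding proteins, 12 microtubule and other cytoskeletal proteins, 3 proteins of adhesion and the growth cone, and 8 proteins of vesicles, secretion and the endoplasmic reticulum. Each gene was read in 12 RNA-seq libraries: 2 of WT mESC, 2 of EED-/- mESC, 4 of WT AntNPC and 4 of EED-/- AntNPC. The mESC are mouse embryonic stem cells kept on gelatin in medium with 15% serum and LIF. The WT line is E14, and the EED-/- line had been made and described in an earlier study, per the labels, which do not describe its allele or parental line. AntNPC are anterior neural progenitors obtained from either line in 5 days of serum-free N2B27 culture, in which bFGF (10 ng/ml) was present for 3 days and absent for the last 2, and Xav939, which blocks WNT signalling, was added at 5 uM from day 2. Each genotype is 1 cell line, so any other difference between the lines cannot be told apart from the genotype. Nothing in the labels states that replicates are separate cultures, and p-values therefore reflect only how far these libraries spread, which may be technical.

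EED belongs to PRC2, which methylates histone H3 on lysine 27 at silent developmental genes, and the title of the series concerns how PRC2 and poised enhancers act in differentiation. A neural progenitor that leaves the cell cycle first makes proneural and neuronal transcription factors, then RNA-binding proteins that set neuronal splicing and message stability, and then the tubulin-binding, adhesion and vesicle proteins of axons and synapses. Many of these genes are kept off outside the nervous system by the repressor REST, and genes for neuronal transcription factors are common PRC2 targets in stem cells.

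Levels are given in FPKM, the fragments of a gene scaled by its transcript length and by the size of the library, so that levels of different genes can be set side by side. Read depth per library is unknown, and the sum of FPKM ran from 453550 to 864235. The mESC libraries differed within a genotype: WT replicate 2 and EED-/- replicate 1 had the larger sums and held 32.0% and 24.7% of them in ribosomal protein genes, against 15.7% and 10.2% in the other mESC library of each genotype. In both AntNPC groups replicate 1 stood apart, correlating with the others at 0.956 to 0.964 across genes where they correlated among themselves at 0.996 to 0.997. Eed itself was listed at 42, 54.7, 63.4 and 61.7 FPKM in WT AntNPC. In AntNPC labelled EED-/- it was at 182, 171, 202 and 186 FPKM, so its FPKM was higher there. In the authors' deposited table its mean AntNPC read count was 3723.13 in WT and 2495.77 in the EED-/- line, a ratio of 0.67. The 2 measures of Eed thus differ in direction. As the allele is not described, the RNA level of Eed does not check the label, and every direction below rests on the labels. A gene was tested where at least 2 libraries reached 1 FPKM, which 13678 genes did. Changes are limma estimates of the difference in log2(FPKM + 1), written ± their standard error, with p-values adjusted over the 13678 genes. On that scale the fold change of a gene at low FPKM is understated. The words "rose" and "fell" are kept for an adjusted p under 0.05.

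Of the 38 genes, 30 were tested. The 8 others were 5 transcription factors (Nhlh2, Neurod4, Myt1, Myt1l and Ebf1), the microtubule-binding protein Dcx, the tubulin-binding protein Stmn4 and the synaptic calcium sensor Syt1, and their highest values lay between 0.147 FPKM for Myt1l and 1.24 FPKM for Ebf1. A further 4 genes reached 1 FPKM in libraries of a single group, Isl1, Ebf2 and Ebf3 in AntNPC labelled EED-/- and Scg3 in WT AntNPC, so these were tested only because that group was high. Another 7 reached it in libraries of 2 groups. These were Cplx2, Insm1, Rbfox3, Celf3 and Snap25 in AntNPC of both lines, Mapt in mESC of both lines, and Neurod1 in WT mESC and WT AntNPC. At the other end, 10 genes were at 1 FPKM or more in all 12 libraries. The sum over the 38 genes was 222 and 415 FPKM in WT mESC, 189 and 192 FPKM in mESC labelled EED-/-, 271 to 306 FPKM in WT AntNPC and 211 to 253 FPKM in AntNPC labelled EED-/-. Stmn2 alone made up the largest single value in all 4 mESC libraries and in the 4 AntNPC libraries labelled EED-/-, while Crmp1 did so in the 4 WT AntNPC libraries. Among the defining markers of neurons in the set, Dcx, a marker of newborn neurons, was at 0.0358 to 0.116 FPKM in WT AntNPC and 0.127 to 0.27 FPKM in those labelled EED-/-. Rbfox3, known as NeuN, was at 4.22 to 6.06 and 1.39 to 2.22 FPKM, and Map2 at 17.4 to 29.8 and 6.92 to 8.57 FPKM. Dcx was thus near 0 in AntNPC of both lines, while Map2 was readily detected. Of the other neuron markers tested, Snap25 also fell in AntNPC labelled EED-/- and Stmn2 rose. Syp, Elavl3 and Elavl4 did not pass there, with changes of 0.30, -0.07 and 0.03. Stmn2, Mapt, Chga and Syn1 went against the label of the set, as they fell from WT mESC to WT AntNPC. Markers of pluripotent cells summed to 1518 to 2862 FPKM in the mESC libraries and to 22.1 to 251 FPKM in AntNPC, and the neural progenitor markers summed to 506 to 549 FPKM in WT AntNPC and 369 to 411 FPKM in those labelled EED-/-.

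**Figure D1:**
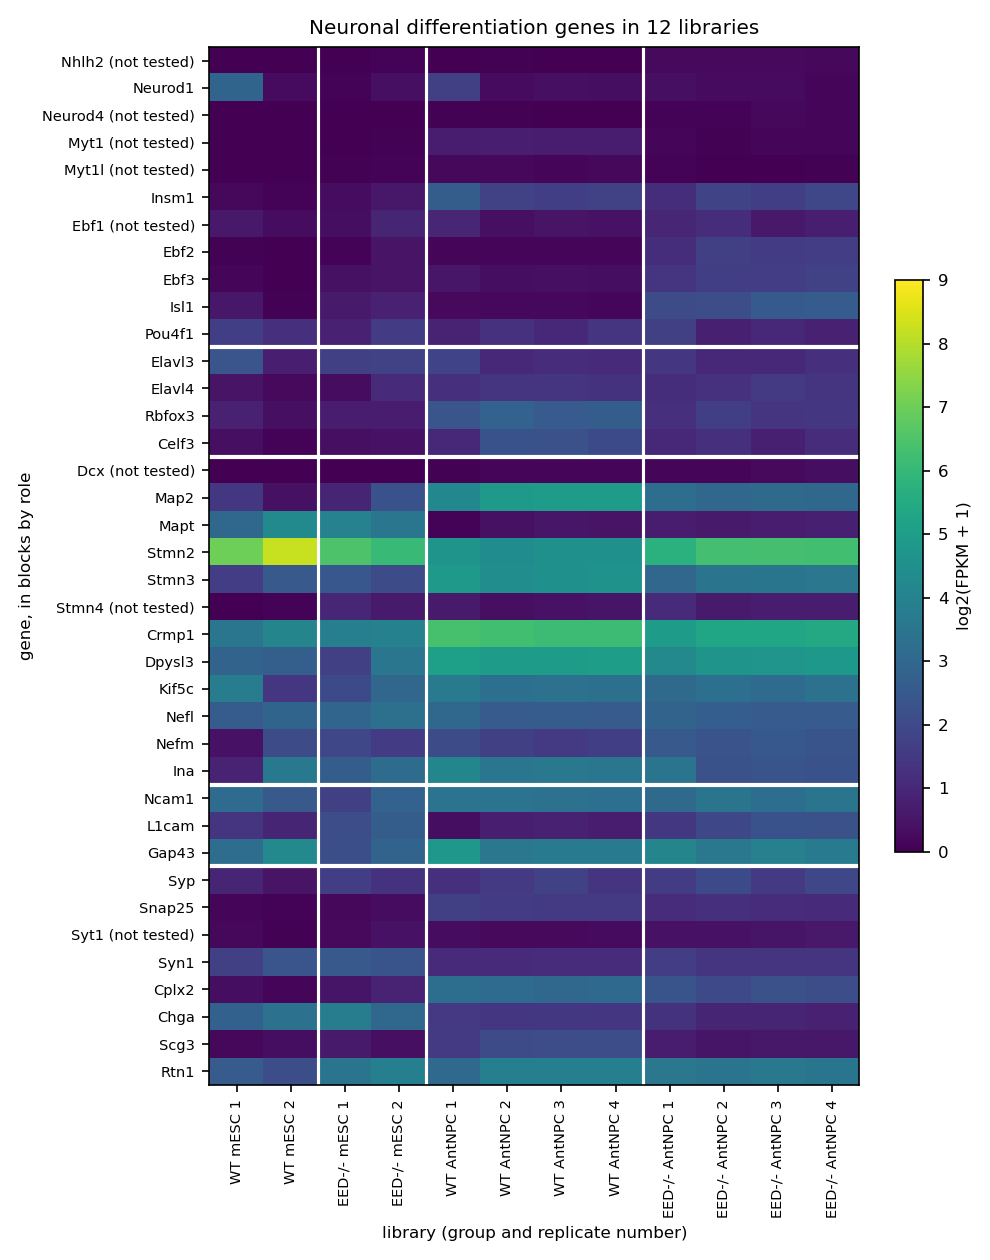
Heat map of log2(FPKM + 1) for the 38 neuronal differentiation genes (rows, in blocks of transcription factors, RNA-binding, cytoskeletal, adhesion and vesicle proteins) in the 12 libraries (columns, by group and replicate). Stmn2 is the brightest row in mESC, Crmp1 and Map2 are brightest in WT AntNPC, and Isl1, Ebf2 and Ebf3 are brightest in the last 4 columns.

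In AntNPC, 5 of the 30 tested genes were higher in the line labelled EED-/- and 8 were lower. The 5 that rose were the transcription factors Isl1, Ebf2 and Ebf3, the tubulin-binding protein Stmn2 and the axonal adhesion molecule L1cam. The 8 that fell were Map2, Stmn3 and Crmp1 of the cytoskeleton, Scg3, Cplx2 and Snap25 of the secretory and synaptic machinery, and the RNA-binding proteins Rbfox3 and Celf3. Among all 13678 tested genes 18.3% rose and 7.75% fell in this comparison, 2507 and 1060 genes, which became 1945 and 1945 under quantile normalization. The share of tested members was 16.7% rising and 26.7% falling. The median change of the 30 was -0.13, beside 0.05 for all tested genes. By role, 3 of 6 tested transcription factors rose, 2 of 4 RNA-binding genes fell, 1 of 10 cytoskeletal genes rose and 3 fell, 1 of 3 adhesion genes rose, and 3 of 7 vesicle and secretory genes fell, and the other members of each role did not pass. Isl1, Ebf2 and Ebf3 entered the test only through AntNPC labelled EED-/-, and Scg3 only through WT AntNPC. The filter thus bears on these shares and role counts, and none of them is a test of the set. Untested factors, Myt1 and Nhlh2 among them, are outside these counts. Of the 13 calls, 12 held in each of the 23 alternative settings tried. Celf3 was the exception: with the replicate number as a block its adjusted p was 0.0659, within a range of 0.000246 to 0.0851 over its alternatives. Celf3 also lost its call without WT AntNPC replicate 2, 3 or 4, or without replicate 1, 3 or 4 of the AntNPC labelled EED-/-. Fitted on the 8 AntNPC libraries alone, 8 members rose and 11 fell. In that fit the counts over all tested genes grew as well, from 2507 to 4323 rising and from 1060 to 2800 falling. With replicates 2 to 4 of AntNPC only, the counts of members were 5 and 8.

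**Figure D2:**
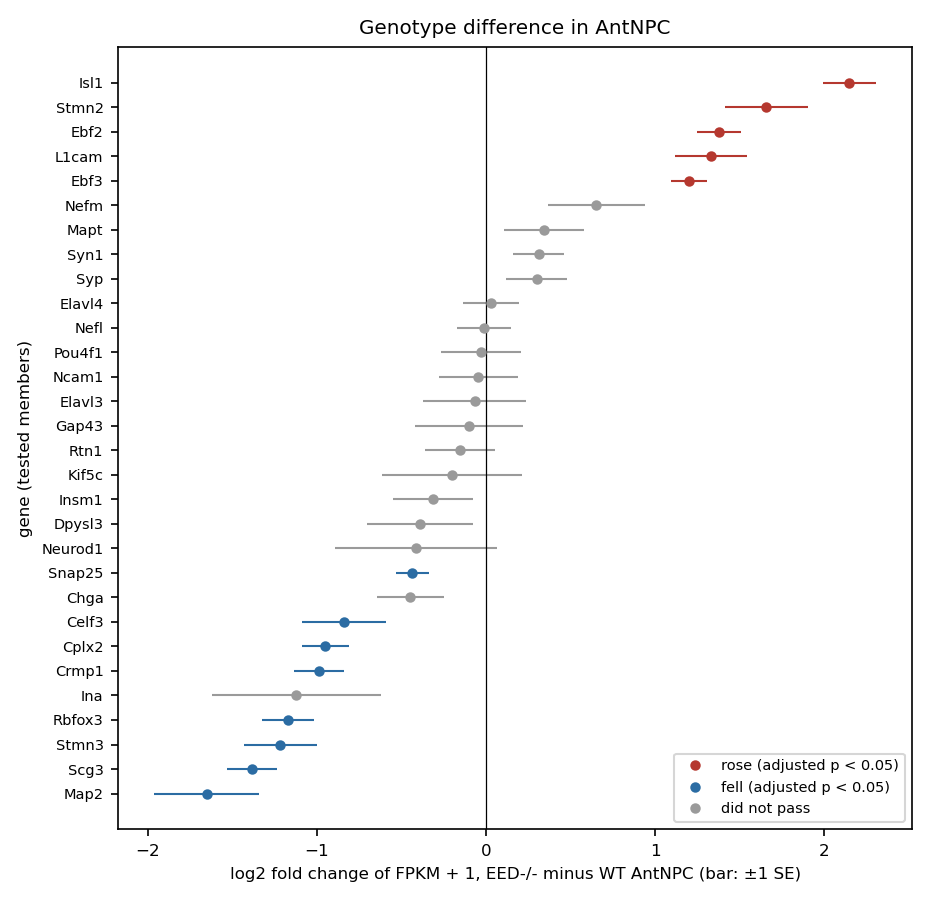
Difference in log2(FPKM + 1) between AntNPC labelled EED-/- and WT AntNPC for the 30 tested genes, ordered by size, with bars of 1 standard error. Isl1 is at the top at 2.15 and Map2 at the bottom at -1.65, and the 13 coloured genes passed the threshold.

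Promoter sequence was looked at for members that moved together. RefSeq's table on GRCm38.p6 held a window of 250 bases before the transcript start for 27 of the 38 genes, 50 windows in all, and 16 of the genes had a single window. The genes with a single window included 2 of the 5 that rose and 5 of the 8 that fell. The windows of Isl1 and Ebf3, the rising genes with a single window, and of Scg3, Rbfox3 and Cplx2, the falling genes of smallest adjusted p with a single window, are printed 5′ to 3′ on the gene's strand, with each CpG, the dinucleotide at which mammalian DNA is methylated, in capitals.
Isl1: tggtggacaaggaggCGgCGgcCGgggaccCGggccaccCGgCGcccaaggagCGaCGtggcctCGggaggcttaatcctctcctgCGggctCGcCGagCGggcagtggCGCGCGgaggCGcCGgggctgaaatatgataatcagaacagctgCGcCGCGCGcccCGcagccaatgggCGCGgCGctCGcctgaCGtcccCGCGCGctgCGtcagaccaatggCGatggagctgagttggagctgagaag
Ebf3: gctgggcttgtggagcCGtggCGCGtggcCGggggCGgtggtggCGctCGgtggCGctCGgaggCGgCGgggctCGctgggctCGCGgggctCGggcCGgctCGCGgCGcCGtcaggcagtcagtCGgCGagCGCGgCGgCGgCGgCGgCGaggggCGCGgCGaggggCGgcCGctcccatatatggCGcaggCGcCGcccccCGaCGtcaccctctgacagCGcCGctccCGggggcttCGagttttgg
Scg3: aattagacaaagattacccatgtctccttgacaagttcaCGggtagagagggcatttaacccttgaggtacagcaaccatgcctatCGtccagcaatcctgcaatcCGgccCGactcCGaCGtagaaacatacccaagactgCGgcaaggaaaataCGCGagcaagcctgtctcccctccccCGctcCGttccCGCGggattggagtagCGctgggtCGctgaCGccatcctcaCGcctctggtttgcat
Rbfox3: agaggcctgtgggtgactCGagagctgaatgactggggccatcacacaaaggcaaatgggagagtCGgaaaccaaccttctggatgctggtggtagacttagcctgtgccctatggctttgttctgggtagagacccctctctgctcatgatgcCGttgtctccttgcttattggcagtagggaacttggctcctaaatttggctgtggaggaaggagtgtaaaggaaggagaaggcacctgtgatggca
Cplx2: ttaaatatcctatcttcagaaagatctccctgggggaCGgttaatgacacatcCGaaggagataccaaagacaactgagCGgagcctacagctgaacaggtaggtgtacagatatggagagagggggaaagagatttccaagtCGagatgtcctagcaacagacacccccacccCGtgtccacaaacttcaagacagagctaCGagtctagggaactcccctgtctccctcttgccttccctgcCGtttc

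The Isl1 window (chr13:116309689-116309938, minus strand) holds 33 CpG and the Ebf3 window (chr7:137314446-137314695, minus strand) holds 43. The Scg3 window (chr9:75684057-75684306, minus strand) holds 17, the Rbfox3 window (chr11:118761042-118761291, minus strand) 3 and the Cplx2 window (chr13:54302306-54302555, plus strand) 7. The Rbfox3 start lies inside the gene as GENCODE draws it, and the Cplx2 start lies upstream of the GENCODE gene, so neither need be the start in use in these cells. Of the other falling genes with a single window, Map2 had 34 CpG and Stmn3 had 3, so the falling genes spanned both dense and sparse windows. L1cam, which rose, had 2 windows, with 20 and 12 CpG. Dense single windows were also found for genes that did not pass in AntNPC, with 47 CpG for Pou4f1, 27 for Syn1 and 25 for Ina. The median was 18.5 over the 16 genes with a single window, 9 over all 50 windows of members and 6 over the 32851 windows of the whole table. The E-box CAGCTG, the core bound by proneural basic helix-loop-helix factors, was found on either strand in a window of 10 of the 27 genes, Isl1 and Cplx2 among them, and in 13.0% of all windows. A second E-box, CAGATG, was found for 7 of the 27 and in 14.4% of all windows. Of the letters searched for REST, TTCAGCACC was in 1 member's window, that of Syn1, and in 0.301% of all windows, and GGACAGCGC was in 0 and in 0.304%. The CCAAT box was found for 13 genes and in 33.8% of all windows. Genes with several windows have more chances of a match, so the counts per gene do not compare directly with the shares of windows. Among the 16 genes with a single window, CAGCTG was found for 6, CAGATG for 2 and the CCAAT box for 5. TTCAGCACC was found for 1 of these 16 and GGACAGCGC for 0. These matches describe letters and not binding.

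Isl1 (chr13:116298281-116309689, as every gene position here from GENCODE M21 on GRCm38) encodes a LIM-homeodomain factor of motor and sensory neurons that is also made by heart progenitors and endocrine cells. It was listed at 3.19, 3.4, 4.91 and 5.07 FPKM in the 4 libraries of AntNPC labelled EED-/- and at 0.185, 0.156, 0.157 and 0.0855 FPKM in the 4 WT AntNPC libraries. In mESC the values were 0.485 and 0.0489 FPKM in WT and 0.554 and 0.785 FPKM in the EED-/- line. Every library of AntNPC labelled EED-/- was above every other library of the series. The group means in AntNPC were 4.14 ± 0.985 and 0.146 ± 0.0423 FPKM (SD, n = 4 each), a ratio of 28.4, and the change was 2.15 ± 0.16 (adjusted p = 3.65e-06). Between mESC and AntNPC, Isl1 rose by 1.61 ± 0.19 in the EED-/- line (adjusted p = 0.000114), beside -0.12 ± 0.19 in WT (adjusted p = 0.625).

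Ebf2 (chr14:67233292-67430918) and Ebf3 (chr7:137193673-137314445) encode helix-loop-helix factors of the early B-cell factor family, which act in young neurons after the proneural factors and in several mesodermal tissues. Ebf2 was listed at 1.25, 2.25, 1.96 and 2.14 FPKM in AntNPC labelled EED-/- and 0.108, 0.0898, 0.0975 and 0.125 FPKM in WT AntNPC, after 0.0633 and 0.397 and 0.0383 and 0.00512 FPKM in the corresponding mESC. The 4 high libraries did not overlap any others, and replicate 1 was the lowest of them. Ebf2 rose by 1.38 ± 0.13 in AntNPC (adjusted p = 1.94e-05). Ebf3 showed the same order of groups, at 1.6, 2.17, 2.08 and 2.38 FPKM in AntNPC labelled EED-/- against 0.475, 0.272, 0.295 and 0.27 FPKM in WT, and rose by 1.20 ± 0.11 (adjusted p = 1.36e-05). Its mESC values were 0.106 and 0.0221 FPKM in WT and 0.32 and 0.4 FPKM in the EED-/- line, where the change of 0.35 ± 0.15 did not pass (adjusted p = 0.125). The third family member, Ebf1, reached 1 FPKM in a single library and was not tested. It was at 0.527 to 1.24 FPKM in AntNPC labelled EED-/- and 0.281 to 0.978 FPKM in WT AntNPC, and these ranges overlap. Markers of heart and smooth muscle, tissues in which Isl1 or Ebf genes are also made, moved in the same libraries: 12 of 12 rose in AntNPC, their sum was 57.2 to 130 FPKM against 5.43 to 7.92 FPKM in WT, and in WT AntNPC Nkx2-5, Tbx5, Hand2, Tbx20 and Myh6 were under 0.1 FPKM throughout. Their part in the levels of Isl1, Ebf2 and Ebf3 was not tested.

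The other transcription factors did not differ past the threshold between the AntNPC groups. Neurod1, a basic helix-loop-helix driver of neuronal and endocrine differentiation, was at 2.23, 0.196, 0.29 and 0.273 FPKM in WT AntNPC and 0.284, 0.2, 0.187 and 0.0992 FPKM in those labelled EED-/-. In WT mESC it was at 6.39 and 0.192 FPKM, so replicate 1 of both WT groups held the high values and set the group means. Its mESC values in the EED-/- line were 0.0671 and 0.279 FPKM. The AntNPC change was -0.41 ± 0.48 (adjusted p = 0.612). Pou4f1, a POU factor of sensory neurons, was at 0.82, 1.41, 1.05 and 1.57 FPKM in WT AntNPC and 2.29, 0.741, 1.06 and 0.793 FPKM in those labelled EED-/-. Its mESC values were 2.15 and 1.31 FPKM in WT and 0.776 and 1.96 FPKM in the EED-/- line, and all 4 groups overlapped. Insm1, a zinc-finger factor of progenitors leaving the cell cycle, was at 2.17 to 5.33 FPKM in WT AntNPC, 1.25 to 2.76 FPKM in those labelled EED-/-, 0.0528 to 0.154 FPKM in WT mESC and 0.243 to 0.487 FPKM in mESC labelled EED-/-. It rose between mESC and AntNPC in both lines, by 1.82 ± 0.29 in WT (adjusted p = 0.000389) and 1.20 ± 0.29 in the EED-/- line (adjusted p = 0.00936). Myt1, a zinc-finger partner of proneural factors, was among the untested genes, yet its AntNPC ranges lay apart at 0.594 to 0.697 FPKM in WT and 0.0437 to 0.117 FPKM in the EED-/- line, and those of Nhlh2 lay apart in the other direction at 0 to 0.0254 and 0.134 to 0.165 FPKM. Neurod4 was at 0.00615 to 0.0301 FPKM in WT AntNPC and 0.0556 to 0.157 FPKM in those labelled EED-/-, and was listed at 0 in all 4 mESC libraries.

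**Figure D3:**
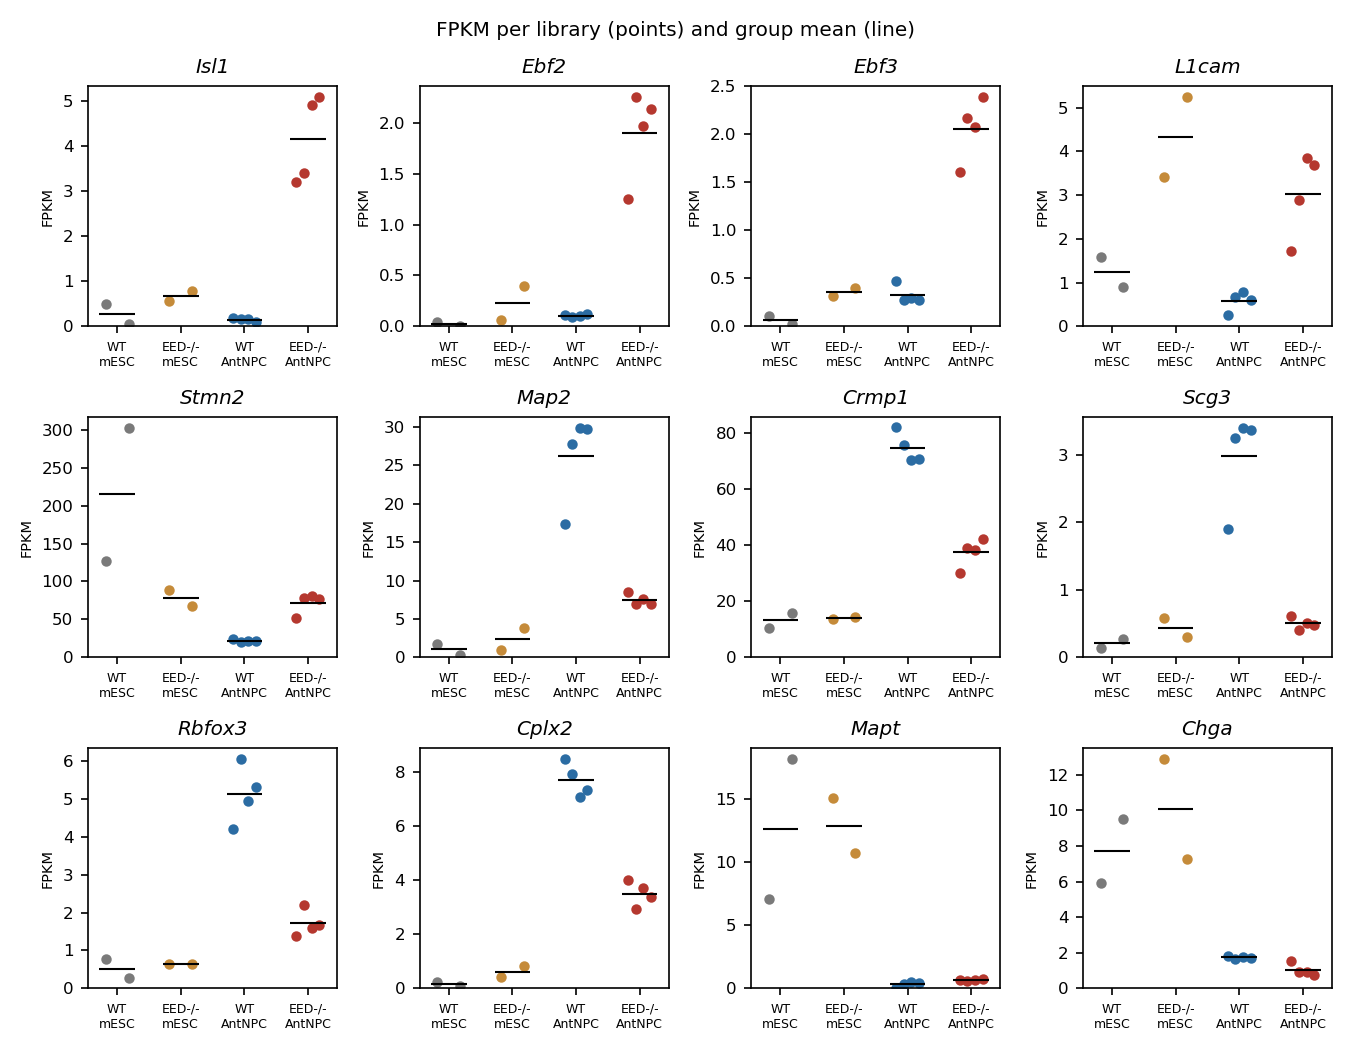
FPKM on linear axes from 0 for 12 of the genes, with 1 point per library and a line at the group mean (2 libraries per mESC group, 4 per AntNPC group). Isl1, Ebf2 and Ebf3 are high in AntNPC labelled EED-/- alone, Map2, Crmp1, Scg3, Rbfox3 and Cplx2 are highest in WT AntNPC, and Mapt and Chga are highest in mESC.

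Among the RNA-binding proteins, Rbfox3 (chr11:118489762-118911597), the splicing regulator known as the mature-neuron antigen NeuN, was at 4.22, 6.06, 4.94 and 5.33 FPKM in WT AntNPC and 1.39, 2.22, 1.61 and 1.68 FPKM in AntNPC labelled EED-/-. In mESC it was at 0.762 and 0.28 FPKM in WT and 0.639 and 0.656 FPKM in the EED-/- line. The WT AntNPC libraries were thus the highest 4 of the series and those labelled EED-/- the next 4. Rbfox3 was lower in AntNPC labelled EED-/- by a change of -1.17 ± 0.15 (adjusted p = 0.000189), with group means of 5.14 ± 0.77 and 1.72 ± 0.351 FPKM (SD, n = 4 each). Celf3 (chr3:94478295-94492198), a brain-enriched splicing and translation regulator, was at 1.04 to 3.85 FPKM in WT AntNPC and 0.745 to 1.34 FPKM in those labelled EED-/-. WT replicate 1, the lowest of its group, lay inside the range of the other group, and the change was -0.84 ± 0.25 (adjusted p = 0.0273). Elavl3 and Elavl4 encode the neuronal Hu proteins HuC and HuD, which bind AU-rich messages. Elavl3 was at 2.48, 1.01, 1.2 and 1.1 FPKM in WT AntNPC, 1.71, 1.07, 1.03 and 1.36 FPKM in those labelled EED-/-, 4.14 and 0.679 FPKM in WT mESC and 2.26 and 2.31 FPKM in mESC labelled EED-/-, with no comparison past the threshold. Elavl4 was at 1.3 to 1.59 and 1.26 to 1.91 FPKM in the AntNPC groups, a change of 0.03 ± 0.17 (adjusted p = 0.93), which turned to -0.39 under quantile normalization.

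Map2 (chr1:66175273-66442583), the dendritic microtubule-associated protein, had the largest fall of the tested set in AntNPC on the log2(FPKM + 1) scale. It was at 17.4, 27.8, 29.8 and 29.7 FPKM in WT AntNPC and 8.57, 6.92, 7.56 and 6.94 FPKM in AntNPC labelled EED-/-. Its mESC values were 1.72 and 0.325 FPKM in WT and 0.923 and 3.81 FPKM in the EED-/- line, so AntNPC of both lines lay above the mESC of both. The 2 AntNPC groups did not overlap although WT replicate 1 was well below the other 3 WT libraries. The change was -1.65 ± 0.31 (adjusted p = 0.0022) and the ratio of means 0.286, which was lower still for Scg3 (0.169) and the untested Myt1 (0.127). Mapt (chr11:104231390-104332090), which encodes the axonal protein tau, followed a different course. It was at 7.05 and 18.1 FPKM in WT mESC and 15.1 and 10.7 FPKM in mESC labelled EED-/-, and at 0.0547, 0.309, 0.462 and 0.395 and 0.647, 0.559, 0.658 and 0.713 FPKM in the AntNPC groups. Its mESC libraries all lay above its AntNPC libraries. Mapt fell between mESC and AntNPC, with changes of -3.26 ± 0.29 in WT (adjusted p = 5.7e-06) and -3.06 ± 0.29 in the EED-/- line (adjusted p = 2.42e-05).

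The stathmins bind free tubulin and are made in growing axons. Stmn2 (chr3:8509360-8561606), known as SCG10, was at 127 and 303 FPKM in WT mESC and 88.2 and 67 FPKM in mESC labelled EED-/-. AntNPC libraries had 24.2, 19.6, 21.9 and 21.7 FPKM in WT and 52.2, 78, 81 and 76.3 FPKM in the EED-/- line. The lowest group by level was thus WT AntNPC, and AntNPC labelled EED-/- overlapped with mESC of the same line. Stmn2 was higher by 1.66 ± 0.25 in AntNPC labelled EED-/- (adjusted p = 0.000453). It lies on chromosome 3, as do Celf3 and the untested Nhlh2. The 461 genes there with a mean above 5 FPKM had a median shift of 0.57 in AntNPC and 0.45 in mESC of the EED-/- line. That shift is relative to the autosomes other than 3, 6 and 8. Chromosomes 6 and 8, which hold no members, were shifted by 0.63 and 0.46 in AntNPC. With the shifts of these chromosomes removed, Celf3 and Stmn2 were still called in AntNPC. Stmn3 (chr2:181306459-181314500) took the course opposite to that of Stmn2. It was at 28.4, 20.1, 22 and 23 FPKM in WT AntNPC and 6.85, 10.2, 10.3 and 10.9 FPKM in those labelled EED-/-. Its mESC values were 2.12 and 4.68 FPKM in WT and 4.42 and 3.21 FPKM in the EED-/- line. The AntNPC groups did not overlap, and the change was -1.22 ± 0.22 (adjusted p = 0.00156). Stmn4, untested, ranged from 0.291 to 0.574 FPKM in WT AntNPC and 0.586 to 1.13 FPKM in those labelled EED-/-.

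Crmp1 (chr5:37241940-37292133) and Dpysl3 encode collapsin response mediator proteins, which link axon guidance signals to microtubules. Crmp1 was at 82.2, 75.8, 70.5 and 70.8 FPKM in WT AntNPC and 30.1, 39, 38.4 and 42.3 FPKM in AntNPC labelled EED-/-, after 10.5 and 15.9 and 13.8 and 14.5 FPKM in the mESC of those lines. Levels in AntNPC labelled EED-/- sat between the mESC libraries and WT AntNPC with no overlap on either side. The change was -0.99 ± 0.15 (adjusted p = 0.000489). Dpysl3 was at 32.8, 29.3, 29.5 and 31.5 FPKM in WT AntNPC and 17.9, 24.5, 24.9 and 26.6 FPKM in those labelled EED-/-, and at 6.21 and 5.67 and 2.23 and 10.7 FPKM in mESC. Its AntNPC groups did not overlap either, but the change of -0.39 ± 0.31 did not pass (adjusted p = 0.43). The 2 libraries of mESC labelled EED-/- were far apart for Dpysl3, and without replicate 1 its mESC change was 0.76 in place of -0.17 ± 0.44.

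The neurofilament genes, which encode the intermediate filaments of axons, did not differ past the threshold. Nefl was at 6.94, 4.94, 5.19 and 5.06 FPKM in WT AntNPC, 6.29, 5.49, 4.99 and 5.02 FPKM in those labelled EED-/-, 5.18 and 6.5 FPKM in WT mESC and 6.57 and 8.97 FPKM in mESC labelled EED-/-. Its level was nearly flat over the series. Nefm was at 3.26, 2.24, 1.91 and 2.21 FPKM in WT AntNPC and 4.7, 3.9, 4.56 and 4.07 FPKM in those labelled EED-/-, groups that did not overlap, with 0.364 and 3.21 and 2.78 and 2.04 FPKM in mESC. The AntNPC change was 0.65 ± 0.29 (adjusted p = 0.128). The annotated span of Nefm contains Nefl on the opposite strand, and the genes share 1108 exonic bases, 32.8% of those of Nefl and 19.2% of those of Nefm, so without strand their reads cannot be told apart there. Ina, alpha-internexin, shares 14.1% of its exonic bases with Nt5c2 on the other strand. It ranged from 10.4 to 16.3 FPKM in WT AntNPC and 3.68 to 9.9 FPKM in those labelled EED-/-, where replicate 1 was the highest library of each group, and its change of -1.12 ± 0.50 did not pass (adjusted p = 0.133). Kif5c, a neuronal kinesin heavy chain, was at 8.8 to 12.1 and 7.75 to 9.32 FPKM in the AntNPC groups. Its WT mESC libraries were far apart at 13.1 and 1.68 FPKM, with 3.03 and 6.79 FPKM in mESC labelled EED-/-, and its mESC change of -0.14 ± 0.58 turned to 1.06 without WT replicate 1.

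L1cam (chrX:73853778-73896105), an adhesion molecule of the immunoglobulin family that guides axons and is also made by neural crest and some epithelia, was at 0.258, 0.671, 0.777 and 0.596 FPKM in WT AntNPC and 1.72, 2.88, 3.84 and 3.68 FPKM in AntNPC labelled EED-/-. It was at 1.58 and 0.901 FPKM in WT mESC and 3.42 and 5.24 FPKM in mESC labelled EED-/-. In both cell types the EED-/- libraries lay above the WT libraries without overlap. The change was 1.33 ± 0.21 in AntNPC (adjusted p = 0.000784) and 1.25 ± 0.30 in mESC (adjusted p = 0.0125), and the interaction was 0.09 ± 0.37 (adjusted p = 0.926), so a difference between the cell types in the effect of genotype was not shown. Neural crest and placode markers moved in the same AntNPC libraries: 6 of 9 tested rose, with sums of 43.4 to 46.8 FPKM against 18.2 to 19.7 FPKM in WT, and their part in the level of L1cam was not tested. Ncam1, the neural cell adhesion molecule, was at 9.86, 9.72, 9.19 and 8.73 FPKM in WT AntNPC and 7.71, 10.1, 8.63 and 9.98 FPKM in those labelled EED-/-, with 7.83 and 4.7 and 2.26 and 6.05 FPKM in mESC. Gap43, a growth-cone membrane protein, was at 27, 10.8, 11.8 and 11.8 FPKM in WT AntNPC and 16.3, 11.3, 14.1 and 11.7 FPKM in those labelled EED-/-, with 8.2 and 18 and 3.49 and 6.31 FPKM in mESC. Replicate 1 was the highest AntNPC library of both groups for Gap43. Neither gene differed in AntNPC past the threshold, with changes of -0.05 ± 0.23 (adjusted p = 0.926) and -0.10 ± 0.32 (adjusted p = 0.875).

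Of the vesicle and secretory genes, Scg3 (chr9:75643189-75684056), a granin that helps sort cargo into dense-core granules, was at 1.9, 3.25, 3.39 and 3.36 FPKM in WT AntNPC and 0.618, 0.407, 0.512 and 0.48 FPKM in AntNPC labelled EED-/-. Its mESC values were 0.144 and 0.273 FPKM in WT and 0.579 and 0.299 FPKM in the EED-/- line. The AntNPC labelled EED-/- were thus at the level of mESC of that line. The change in AntNPC was -1.38 ± 0.15 (adjusted p = 4.58e-05), with a ratio of means of 0.169. Cplx2 (chr13:54371349-54383917), complexin 2, which clamps and promotes vesicle fusion, was at 8.48, 7.92, 7.07 and 7.34 FPKM in WT AntNPC and 4.01, 2.93, 3.71 and 3.38 FPKM in those labelled EED-/-, with 0.251 and 0.0813 and 0.423 and 0.812 FPKM in mESC. The 4 groups lay in a clear order with mESC lowest, and the AntNPC change was -0.95 ± 0.14 (adjusted p = 0.00041). Snap25 (chr2:136713453-136782428), a SNARE protein of the presynaptic membrane, was at 2.26, 2.06, 1.86 and 1.87 FPKM in WT AntNPC and 1.21, 1.38, 1.22 and 1.09 FPKM in those labelled EED-/-, with 0.108 and 0.0664 and 0.151 and 0.236 FPKM in mESC. It fell, with a change of -0.44 ± 0.10 (adjusted p = 0.00557), the smallest of the 13.

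The remaining vesicle genes did not pass in AntNPC. Chga, chromogranin A of dense-core granules, was at 1.82, 1.67, 1.78 and 1.69 FPKM in WT AntNPC and 1.52, 0.912, 0.929 and 0.757 FPKM in those labelled EED-/-, groups that lay apart with a change of -0.45 ± 0.20 (adjusted p = 0.13). Like Mapt it was higher in mESC, at 5.89 and 9.5 FPKM in WT and 12.9 and 7.27 FPKM in the EED-/- line. Syn1, synapsin 1 of the vesicle surface, was also highest in mESC, at 2.28 and 4.17 and 4.69 and 4 FPKM, against 1.08, 1.12, 1.22 and 1.22 FPKM in WT AntNPC and 2.08, 1.58, 1.54 and 1.56 FPKM in those labelled EED-/-. Its AntNPC groups did not overlap, and the change of 0.31 ± 0.15 did not pass (adjusted p = 0.169). Syp, synaptophysin, was at 1.32, 1.88, 2.36 and 1.54 FPKM in WT AntNPC and 1.93, 3.04, 1.9 and 2.8 FPKM in those labelled EED-/-, with 0.915 and 0.373 and 2.09 and 1.5 FPKM in mESC. It shares 16.8% of its exonic bases with the antisense gene Gm14703. Rtn1, a reticulon of the endoplasmic reticulum in neurons, was at 7.39, 13.9, 13.7 and 13.9 FPKM in WT AntNPC and 10.8, 10.0, 11.3 and 10.3 FPKM in those labelled EED-/-. WT replicate 1 was the lowest of the 8 and the other 3 WT libraries lay close together near the top. Syt1, untested, was at 0.16 to 0.216 FPKM in WT AntNPC and 0.348 to 0.55 FPKM in those labelled EED-/-, ranges that did not overlap.

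In mESC 3 of the 30 tested genes were higher in the line labelled EED-/- and 1 was lower. Among all tested genes 20% rose and 2.73% fell, 2732 and 373 genes, which became 1216 and 1113 under quantile normalization. The members' shares were 10.0% and 3.33%, and under quantile normalization 0 rose and 4 fell, with 2 and 5 at an unadjusted p under 0.05. Their median change was 0.25, beside 0.29 for all tested genes. Rtn1 rose by 1.30 ± 0.29 (adjusted p = 0.0084), from 4.94 and 3.47 FPKM in WT to 9.99 and 13.6 FPKM in the EED-/- line, and L1cam and Syp were the others that rose. Syp passed narrowly, with a change of 0.78 ± 0.25 (adjusted p = 0.0483). Stmn2 fell, with a change of -1.34 ± 0.35 (adjusted p = 0.0175), the reverse of its direction in AntNPC. With 2 libraries a group these calls rest on the spread of all 12 libraries. Without replicate 2 of mESC labelled EED-/- 0 genes rose, with 4 at an unadjusted p under 0.05, and the 2 that fell were Dpysl3 and Ncam1. Stmn2 also lost its call without WT mESC replicate 2, where Kif5c and Neurod1 fell, and Gap43 fell besides Stmn2 without replicate 1 of WT mESC or of WT AntNPC. Without replicate 1 of either mESC group 5 genes rose, and without WT mESC replicate 2 the number was 6. Syp lost its call on leaving out any single library other than replicate 1 of WT mESC or of WT AntNPC. Markers of cells that are not neural differed in the same mESC libraries. Trophoblast markers rose in 7 of 9 tested in the EED-/- line, from sums of 45.7 to 58.7 FPKM in WT to 935 to 2383 FPKM, with Cdx2 and Plac1 under 0.1 FPKM in WT. Cardiac and smooth muscle markers rose in 8 of 12, from 29.8 to 56.4 to 283 to 409 FPKM, with Tbx5, Hand2 and Tbx20 under 0.1 FPKM in WT. Endoderm markers rose in 5 of 9, from 86.6 to 102 to 115 to 190 FPKM, neural crest and placode markers in 4 of 9, where the sums of 8.17 to 36.3 and 27 to 29 FPKM overlapped, and pluripotent cell markers in 1 of 9. Their part in the mESC levels of Rtn1, L1cam, Syp and Stmn2 was not tested. In a fit on the 4 mESC libraries alone 0 members rose and 0 fell, with 1 and 0 at an unadjusted p under 0.05.

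Between mESC and AntNPC of the WT line, 13 of the 30 tested genes rose and 4 fell, beside 30.1% and 18.1% of all tested genes. The members' shares were 43.3% and 13.3%, and their median change was 0.65, beside 0.17 for all tested genes. On the log2(FPKM + 1) scale the largest rise was that of Map2, by 3.81 ± 0.38 (adjusted p = 1.31e-05), with a ratio of means of 25.6. Cplx2 had the smallest adjusted p, with a rise of 2.90 ± 0.17 (adjusted p = 3.21e-07) and a higher ratio of means, 46.4. The ratio of Insm1 was 29.6, also above that of Map2. Stmn3 rose by 2.52 ± 0.27 (adjusted p = 1.94e-05), Crmp1 by 2.44 ± 0.18 (adjusted p = 1.48e-06) and Dpysl3 by 2.20 ± 0.38 (adjusted p = 0.000694). Rbfox3, Celf3 and Elavl4 of the RNA-binding proteins rose, Rbfox3 by 2.02 ± 0.19 (adjusted p = 7.63e-06). Scg3, Snap25, Rtn1 and Syp of the vesicle and reticulum proteins rose, as did Insm1 alone among the 6 tested transcription factors. Snap25 went up by 1.47 ± 0.12 (adjusted p = 2.43e-06) and Scg3 by 1.70 ± 0.18 (adjusted p = 2.15e-05). Scg3 had passed the filter only through WT AntNPC. Cplx2, Insm1, Rbfox3, Celf3 and Snap25 reached 1 FPKM in AntNPC libraries alone, and Mapt in mESC libraries alone. The filter therefore bears on the rising and the falling share of members here. The 4 that fell were Mapt, Stmn2, Chga and Syn1, with a change of -3.12 ± 0.30 for Stmn2 (adjusted p = 1.02e-05) and -1.63 ± 0.24 for Chga (adjusted p = 0.000236). All 7 tested vesicle genes therefore changed, 5 upward and 2 downward. Syp was the only one of the 17 that lost its call on leaving out a single library, WT mESC replicate 2.

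In the line labelled EED-/-, 14 of the 30 tested genes rose between mESC and AntNPC and 3 fell, beside 14.4% and 16.7% of all tested genes. The members' shares were 46.7% and 10.0%, with a median change of 0.64, beside -0.01 for all tested genes. Ebf3, Isl1 and Ebf2 were among those that rose, by 1.16 ± 0.13, 1.61 ± 0.19 and 1.24 ± 0.16. They had passed the filter only through AntNPC of this line. Cplx2, Snap25, Insm1 and Rbfox3, which also rose, reached 1 FPKM in AntNPC libraries alone. Mapt, which fell, reached it in mESC libraries alone, so the filter bears on both shares. Dpysl3 rose by 1.98 ± 0.38 (adjusted p = 0.00259), Cplx2 by 1.48 ± 0.17 (adjusted p = 8.42e-05), Map2 by 1.48 ± 0.38 (adjusted p = 0.0132) and Crmp1 by 1.33 ± 0.18 (adjusted p = 0.000268). Stmn3, Snap25, Insm1, Rbfox3, Ncam1, Gap43 and Elavl4 made up the rest. Mapt, Chga and Syn1 fell in this line as in WT, with a change of -2.42 ± 0.24 for Chga (adjusted p = 3.55e-05). Stmn2 did not pass here, with a change of -0.12 ± 0.30 (adjusted p = 0.786). Leaving out replicate 1 of mESC labelled EED-/- brought the 14 down to 8: Map2, Rbfox3, Insm1, Ncam1, Gap43 and Elavl4 then did not pass. Gap43 also lost its call without replicate 1 or 3 of the AntNPC labelled EED-/-, and Elavl4 without replicate 2, 3 or 4 of them or WT AntNPC replicate 4.

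The change between mESC and AntNPC differed between the lines for 12 of the 30 genes, by the interaction term of the same model. It was more upward in the EED-/- line for 4 (Stmn2, Isl1, Ebf2 and Ebf3) and more downward for 8 (Scg3, Cplx2, Rbfox3, Map2, Crmp1, Rtn1, Stmn3 and Snap25). Among all tested genes 3.98% were called upward and 11.3% downward, 545 and 1541 genes, which became 733 and 841 under quantile normalization, and the members' shares were 13.3% and 26.7%. Isl1, Ebf2 and Ebf3 had passed the filter only through AntNPC labelled EED-/-, and Scg3 only through WT AntNPC. The filter thus bears on both shares of members. The members' median was -0.27, beside -0.20 for all tested genes. Stmn2 had the largest term on this scale, at 2.997 ± 0.42 (adjusted p = 0.00109). Isl1 followed among the upward terms at 1.73 ± 0.27 (adjusted p = 0.00202). Scg3 had -1.63 ± 0.26 (adjusted p = 0.00199), Map2 -2.33 ± 0.54 (adjusted p = 0.0141), and Cplx2 -1.42 ± 0.24 (adjusted p = 0.00297). For Map2, Crmp1, Stmn3, Cplx2, Rbfox3 and Snap25 the level rose in both lines and the rise was smaller in the EED-/- line, while Scg3 and Rtn1 rose in WT and did not pass in the EED-/- line. Mapt, Syn1 and Dpysl3 did not pass, with terms of 0.20 ± 0.41 (adjusted p = 0.834), -0.06 ± 0.26 (adjusted p = 0.926) and -0.22 ± 0.54 (adjusted p = 0.865). The interaction and the comparisons above share libraries, so their calls are not independent of each other. Ebf3 lost this call with a pseudocount of 0.1 (adjusted p = 0.272) and under quantile normalization (adjusted p = 0.0732), where Crmp1, Rtn1 and Stmn3 did not pass either. Rtn1 also lost it without replicate 2 of mESC labelled EED-/-, as did Snap25 there and without any AntNPC library other than WT replicate 1. Stmn3 lost it without replicate 1 of either mESC group, without WT AntNPC replicate 3 or 4, without replicate 2 of the AntNPC labelled EED-/-, and with replicates 2 to 4 of AntNPC only.

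**Figure D4:**
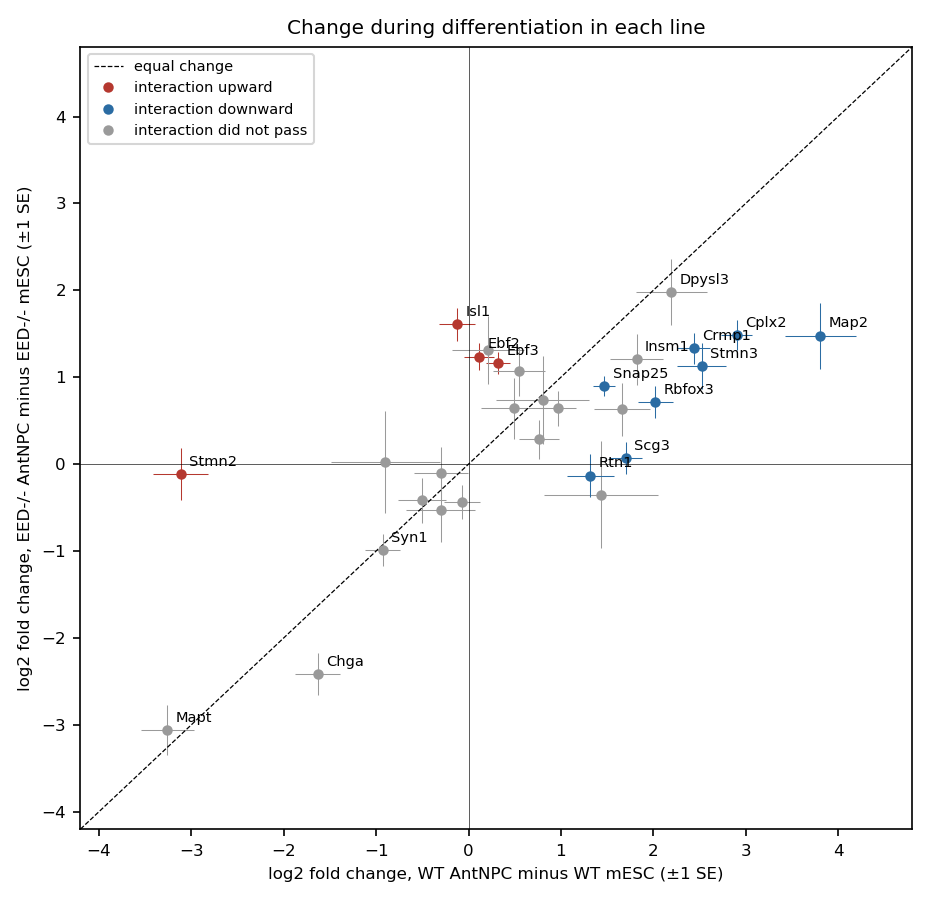
Change in log2(FPKM + 1) between mESC and AntNPC in the line labelled EED-/- (vertical) against that in WT (horizontal) for the 30 tested genes, with bars of 1 standard error and a dashed line of equal change. Stmn2, Isl1, Ebf2 and Ebf3 lie above the line, 8 genes with Map2 farthest right lie below it, and Mapt and Chga fell in both lines.

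In the authors' deposited table of AntNPC read counts, 31 of the 38 genes had a p-value under 0.05, which is not stated to be adjusted, beside 52.2% of all genes in that table. Of those, 13 were higher and 18 lower in the EED-/- line. All 13 genes called here had the same direction there and a p-value under that value, and both come from the same AntNPC libraries. Isl1 had a mean read count in the authors' deposited table of 11.12 in WT and 352.59 in the EED-/- line, that of Ebf2 21.44 and 337.18, and that of Stmn2 1995.6 and 6005.88. Map2 went from 3285.15 to 976.09 in the authors' deposited table, and Scg3 from 324.69 to 49.79. Of the 17 tested genes that did not pass here 11 had such a p-value in the authors' deposited table, and of the 8 untested genes 7 did, Ebf1 being the exception with 109.18 in WT and 146.29 in the EED-/- line. Myt1 was at 135.25 and 10.96, and Nhlh2 at 1.99 and 21.24, in the authors' deposited table.

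Other genes of neuronal differentiation, from lists outside the 39, were counted in the same AntNPC comparison. Of the proneural and subtype transcription factors, 4 of 12 tested rose and 2 fell. Mnx1, a motor neuron homeobox factor, rose by 1.42 ± 0.19 (adjusted p = 0.000218), from 0.091 to 1 to 2.15 to 2.97 FPKM, and Isl2, the relative of Isl1, by 0.80 ± 0.13 (adjusted p = 0.000852). Neurog2, a proneural factor of the forebrain, changed by -1.60 ± 0.37 (adjusted p = 0.00751), from 1.56 to 9.68 to 0.162 to 0.371 FPKM, and Barhl1 by -1.01 ± 0.20 (adjusted p = 0.00252). Of other cytoskeletal, axonal and adhesion genes 3 of 24 rose, with Prph, the peripherin of peripheral neurons, at 1.95 ± 0.25 (adjusted p = 0.000159), and 5 fell, with Dpysl4, another collapsin response mediator, at -1.62 ± 0.14 (adjusted p = 1.18e-05) and Tubb4a, a neuronal tubulin, at -1.31 ± 0.15 (adjusted p = 7.24e-05). Of other synaptic and secretory genes 6 of 23 rose and 5 fell, among them Cpe, the carboxypeptidase of secretory granules, at -1.73 ± 0.16 (adjusted p = 1.88e-05). Of other neuronal RNA-binding genes 1 of 10 rose, Celf4, and 3 fell, Nova1, Nova2 and the splicing activator Srrm4. In these lists the rising and falling shares, 33.3% and 16.7%, 12.5% and 20.8%, 26.1% and 21.7%, and 10.0% and 30.0%, stand beside the 18.3% and 7.75% of all tested genes. For REST and its cofactors 0 of 12 rose and 0 fell by limma, with 0 and 2 at an unadjusted p under 0.05, and Rest itself was at 12.5 to 20.7 FPKM in WT AntNPC and 13.3 to 17.3 FPKM in those labelled EED-/-, a change of -0.02 ± 0.30 (adjusted p = 0.975).

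The AntNPC labelled EED-/- also differed from WT in markers of cells that are not neural, whose part in the members' levels was not tested. In these bulk libraries fewer cells of a type and less RNA per cell cannot be told apart. Of the neural progenitor markers 1 of 14 rose and 6 fell, with Sox3 at -1.58 ± 0.16 (adjusted p = 3.07e-05) and the Notch target Hes5 at -1.71 ± 0.20 (adjusted p = 8.18e-05). All 9 pluripotent cell markers rose, from sums of 22.1 to 59.4 FPKM in WT to 148 to 251 FPKM, with 0 of 9 under 0.1 FPKM in either group. Of the members that fell between mESC and AntNPC of WT, Stmn2 passed upward in AntNPC labelled EED-/- and Mapt, Chga and Syn1 did not pass. L1cam, which also rose there, was higher in both WT mESC libraries than in every WT AntNPC library, though that change did not pass. Trophoblast markers rose in 8 of 9 tested, from sums of 36.0 to 41.9 to 282 to 442 FPKM, with Cdx2 and Elf5 under 0.1 FPKM in all WT AntNPC libraries. Early mesoderm markers rose in 5 of 7, from 8.83 to 11.1 to 35.8 to 39.3 FPKM, with Mesp1, Meox1 and Mixl1 under 0.1 FPKM in WT. Endoderm markers rose in 8 of 9 and fell in 1, from 31.6 to 43.7 to 127 to 151 FPKM, with Afp, Foxa1 and Hnf4a under 0.1 FPKM in WT. Of the endocrine markers, which bear on Chga, Scg3, Insm1 and Isl1, 2 of 4 tested rose and 1 fell, from sums of 1.49 to 3.59 to 7.83 to 13.3 FPKM, and Gcg, Ins1, Iapp, Pax4 and Dbh were among those under 0.1 FPKM in every library of AntNPC labelled EED-/-. Glial markers rose in 2 of 5, from 19.3 to 28 to 32.3 to 36.1 FPKM, with S100b, Olig1, Olig2 and Cspg4 under 0.1 FPKM in WT AntNPC.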

How the data were processed

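Polyadenylated RNA was sequenced from 12 libraries prepared, per the labels' protocols, using TruSeq v2 reagents. The authors deposited 1 table of 21253 genes whose single-library columns were taken as FPKM, since the submitters' processing notes list Cufflinks with TopHat2 and the GRCm38 (mm10) build, beside SAMtools, FastQC and, for 8 libraries, DESeq2. The sources used here do not give versions, annotation or use of strand, and the header names no unit. The authors' deposited mean read count per AntNPC group (a normalised signal) and the authors' deposited p-value were copied as they stand. Every per-sample column matched 1 library title (0 unused).

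Values were taken as log2(FPKM + 1), and the 13678 genes at 1 FPKM or more in at least 2 libraries were fitted with limma 3.58.1 (limma-trend, R 4.3.3) as 4 group means over 12 libraries, giving 8 residual degrees of freedom and 2.93 prior ones, in two-sided tests, Benjamini-Hochberg adjusted within each of 5 comparisons, threshold 0.05. The fit was tested on simulated data. FPKM keep no read depth, so no counting interval is given, and an exact 0 can be a failed estimate. The members, the 14 other lists and the tests were chosen with earlier results of these data known. Every library's value is given for members that in any comparison were among the 6 of smallest adjusted p in a direction, and ranges or counts for the rest. From each other list up to 2 genes per direction with the smallest adjusted p in AntNPC could be named, as could Eed and, chosen after their values were seen, Rest and Srrm4. Same-numbered AntNPC libraries of the 2 genotypes deviated together, with correlations of 0.562, 0.318, 0.422 and 0.332, so the replicate block is given where it changed an AntNPC call. Replicates 2 to 4 correlated with other numbers as well, at 0.332 to 0.404, so it is mainly replicate 1 that the numbers mark. Alternatives varied the pseudocount, filter, scaling, libraries and block. Gene positions and shared exonic bases came from GENCODE M21 and promoter windows from RefSeq.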

Additional observations from a re-analysis of the deposited data

Results flagged for a closer look

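Among the 76 sets of 4 AntNPC libraries (38 genes in 2 genotypes), 17 held a library far from the other 3, its gap to the nearest as a share of the whole range exceeding Dixon's 95% critical value for 4 samples, a level that chance passes in about 1 in 20 sets, and in 16 of the 17 that library was replicate 1, 12 times in WT and 4 times in the line labelled EED-/-. In WT AntNPC replicate 1 was high for Neurod1 (2.23 FPKM), Insm1 (5.33 FPKM), Ebf1 (0.978 FPKM), Ebf3 (0.475 FPKM), Elavl3 (2.48 FPKM), Kif5c (12.1 FPKM), Nefl (6.94 FPKM), Ina (16.3 FPKM) and Gap43 (27 FPKM). It was low for Map2 (17.4 FPKM against 27.8 to 29.8 in the others), Scg3 (1.90 FPKM) and Rtn1 (7.39 FPKM against 13.7 to 13.9). In AntNPC labelled EED-/- it was high for Stmn4 (1.13 FPKM), Ina (9.90 FPKM) and Syn1 (2.08 FPKM) and low for Stmn2 (52.2 FPKM against 76.3 to 81.0). Ina was thus high in replicate 1 of both genotypes. The remaining library was WT AntNPC replicate 3 for Myt1l, at 0.0813 FPKM against 0.141 to 0.147. The labels give no reason for the position of replicate 1, and none was tested.

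For 12 genes the change between mESC and AntNPC differed between the lines by the interaction term of limma. It was 2.997 for Stmn2, 1.73 for Isl1, 1.12 for Ebf2 and 0.85 for Ebf3, more upward in the line labelled EED-/-. It was -2.33 for Map2, -1.63 for Scg3, -1.45 for Rtn1, -1.42 for Cplx2, -1.40 for Stmn3, -1.31 for Rbfox3, -1.11 for Crmp1 and -0.57 for Snap25. Adjusted p-values ran from 0.00109 for Stmn2 to 0.0405 for Snap25.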

How the results depend on the processing

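Of the 13 AntNPC calls, 12 were kept under all 23 alternatives and Celf3 under 14. In AntNPC the 5 rising members became 8 with no filter on low values (Neurod4, Nhlh2 and Syt1 added, which had not been tested), 8 with only the AntNPC libraries (Mapt, Nefm and Syn1 added) and 8 with those libraries and the replicate block. With no filter the falling members gained Myt1 (-0.61) and Myt1l (-0.12), which had not been tested either, and lost Celf3. In mESC the 3 rising members became 0 with only the mESC libraries, 0 under quantile normalization and 5 with a pseudocount of 0.1, and the 1 falling became 2 with AntNPC replicates 2 to 4 only, 0 with only the mESC libraries (0 at an unadjusted p under 0.05), 4 under quantile normalization and 0 with the replicate block (2 at an unadjusted p). The 14 rising in the EED-/- line became 7 with the replicate block, and the 8 downward interactions became 5 under quantile normalization and 3 with the block (Map2, Crmp1, Rtn1, Stmn3 and Snap25 lost, and upward Ebf3). Leaving out 1 library at a time gave 5 to 7 rising and 7 to 9 falling in AntNPC, 0 to 6 and 1 to 2 in mESC, 13 to 15 and 4 to 6 in the WT transition, 8 to 16 and 3 to 3 in the EED-/- transition, and 4 to 6 upward and 6 to 10 downward interactions. Between the mESC genotypes same-numbered libraries deviated oppositely (-0.67), and with the mESC numbers crossed, a setting chosen after seeing the data, 2 members rose and 1 fell there.

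The changes that turned direction with a passing test were those of Dpysl3 in mESC, 0.76 without replicate 1 and -1.10 without replicate 2 of mESC labelled EED-/- (first adjusted p 0.0339, range 0.00752 to 0.99 over its alternatives), Elavl4 in AntNPC, -0.39 under quantile normalization (0.0415, range 0.0415 to 1), Kif5c in mESC, 1.06 without WT mESC replicate 1 and -1.33 without replicate 2 (first 0.0361, range 0.0119 to 1), and the Kif5c interaction, 1.14 without WT mESC replicate 2 and -1.26 without replicate 1 (first 0.0494, range 0.0427 to 1). The cause of these shifts was not tested.

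Counts over all tested genes moved too. In AntNPC 2507 rising genes became 4323 with only those libraries and 4549 with the block added, and 1060 falling became 2800 and 3051, 1945 under quantile normalization, 697 with the block over all libraries, and 1669 or 1662 without WT mESC replicate 1 or 2. In mESC 2732 rising became 0 with only those libraries, 1216 under quantile normalization and 1735 with the block, and 373 falling became 0, 1113 and 190, and 716 or 1366 without WT mESC replicate 1 or 2. In the EED-/- transition 1963 rising became 938 with the block, 941 or 2975 without replicate 1 or 2 of its mESC and 3117 or 3119 without WT mESC replicate 1 or 2, and 2282 falling became 1383 with the block. Upward interactions went from 545 to 275 with the block and 1558 without WT mESC replicate 2, and downward ones from 1541 to 841 under quantile normalization, 776 with the block, and 2414 or 2733 without WT mESC replicate 1 or 2. Quantile normalization moved the median change of all genes from 0.29 to -0.05 in mESC, 0.05 to -0.06 in AntNPC, 0.17 to 0.04 in the WT transition and -0.20 to 0.01 for the interaction. Depth is unknown, so what counting error alone would allow for the low genes cannot be given.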
